A study of Ovis aries with 36 samples.

Results

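Both loci counted at the position of MYH7B on sheep chromosome 13 are described here, ENSOARG00000011188 and ENSOARG00000011695. They were chosen by position, as the loci with these Ensembl identifiers whose coordinates hold those that the study gives for MYH7B. They are 2 of the 31136 distinct loci counted and 2 of the 12461 that passed the filter on low counts. The data are RNA-Seq counts from 36 samples, 9 muscles from each of 4 unrelated Poll Dorset cross-bred male lambs aged 14 months. Each lamb gave 1 sample of each muscle, cut from the superficial middle of the belly just after slaughter. The hindlimb and rump gave Semitendinosus (ST), Rectus femoris (RF), Adductor (AD), Semimembranosus (SM), Gluteus medius (GM) and Gluteobiceps (GB), the shoulder gave Supraspinatus (SS), and the loin gave Psoas major (PM) and Longissimus lumborum (LL). All lambs shared the same diet after weaning, no treatment was compared, and the 4 replicates of a muscle are the 4 animals.

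Myosin heavy chains are the motor proteins of the thick filament, and the kind of heavy chain in a fibre is closely tied to how fast it contracts. MYH7B is a relative of MYH7, the heavy chain of slow fibres and of the heart. Its gene carries, in an intron, a microRNA of the family known for acting on slow fibre genes. Muscles of slow fibres hold their own forms of troponin, tropomyosin and myosin light chains, whereas fast muscles hold others. SS is regarded as a slow oxidative muscle and ST as a fast glycolytic one.

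The files give ENSOARG00000011188 and ENSOARG00000011695 the same coordinates, chromosome 13 from 63837468 to 63938828 on the Oar_v3.1 assembly, a span of 101361 bases. This span belongs to the whole group of assembled loci, so the length of each gene, its exons and its strand are not known from the files, and neither is which of the loci carries the name MYH7B. Such sharing is common in these files, since 7846 of the 31136 loci (25.2%) share their span with another locus. The locus names offer 1 further fact. Along chromosome 13 the 1111 locus numbers fall into 3 runs that each follow position, and ENSOARG00000011188 (XLOC_006262) belongs to the first run whereas ENSOARG00000011695 (XLOC_006682) belongs to the second. In the RefSeq gene table of another assembly (ARS-UI_Ramb_v3.0), used only for the order of genes, MYH7B lies between GSS and TRPC4AP. Whether the counting used strand is not given in the sources used here, so reads from any overlapping stretch of the loci cannot be told apart, and the values of both are uncertain to that extent.

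The libraries held between 3699148 and 6427422 counts (median 5905902). Between 65.7% and 78.3% of these fell on 4 loci without an Ensembl gene. Levels are in CPM, that is, counts per library brought to a common total after TMM normalization, where 3 counts correspond to 0.365 to 1.02 CPM. Both loci lay above that level in all 36 samples. As the counts are not corrected for gene length, a level of one locus cannot be set against a level of the other, and all comparisons of levels are made between muscles within a locus. Of 31 marker genes listed for muscle and for other cell types, 0 could be paired with a locus, as the files hold no gene symbols, so the makeup of the tissue was not checked with them. In bulk tissue, fewer fibres of a type and less RNA per fibre cannot be told apart.

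ENSOARG00000011188 varied widely among muscles. It was lowest in ST and highest in SS, and the mean levels of these muscles lay 20.5-fold apart. Over the 36 samples it ranged from 2.18 to 81.2 CPM with a median of 26.9 CPM, from 10 to 551 counts, and its mean level lay at percentile 93.9 of the tested loci. In SS the level was 57.9, 79.9, 80.4 and 77.6 CPM in animals 1 to 4 (73.9 ± 10.8, SD, n = 4). In ST it was 3.45, 2.18, 4.95 and 3.86 CPM (3.61 ± 1.14). The highest ST sample was thus far below the lowest SS sample, a separation found between these muscles in 10.5% of all loci, and ST was the lowest of the 9 muscles in 4 of 4 animals.

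The other muscles filled the range between them. In GB the level of ENSOARG00000011188 was 60.7, 31.8, 26.8 and 64.1 CPM in animals 1 to 4 (45.9 ± 19.3). In PM it was 81.2, 43.4, 21.3 and 34.0 CPM (44.9 ± 25.8), and in GM 43.8, 39.9, 49.2 and 29.3 CPM (40.5 ± 8.41). GB, PM and GM had almost the same mean and overlapped in their samples, but GB and PM were spread far more widely over the animals than GM. PM of animal 1 held the highest level of all 36 samples, and in that animal SS came after PM and GB, whereas SS was the highest in the other 3 animals.

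In AD the level was 35.7, 32.8, 24.0 and 19.1 CPM (27.9 ± 7.67), and in RF it was 9.07, 26.9, 16.8 and 25.8 CPM (19.6 ± 8.37). In LL it was 23.2, 37.8, 5.98 and 4.76 CPM (17.9 ± 15.7), so that animals 3 and 4 had levels close to those of ST and animals 1 and 2 had levels like those of AD. In SM it was 19.4, 8.49, 16.8 and 12.2 CPM (14.2 ± 4.85), above every ST sample. No pair of neighbours in the order SS, GB, PM, GM, AD, RF, LL, SM and ST was called different by edgeR's quasi-likelihood test, 0 of 8. As the order was made from these same means, neighbours are close by construction and the count is a description. Only the step from SM to ST had samples that did not overlap (log2FC 1.88, FDR = 0.032). Over all 36 pairs, 6.19% of locus and pair combinations did not overlap. SM with ST was called in 4 of 14 alternative fits. These were the likelihood ratio test, DESeq2, the fit without a filter and the fit to these 8 samples.

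ENSOARG00000011695 was nearly level over the same samples. It ranged from 8.63 to 16.9 CPM with a median of 12.2 CPM, from 44 to 99 counts, at percentile 81.6 of mean level among the tested loci. The highest muscle mean, in RF, lay 1.28-fold above the lowest, in PM. In RF the level was 14.0, 12.5, 14.3 and 16.9 CPM in animals 1 to 4 (14.4 ± 1.81, SD, n = 4), and in PM it was 12, 12, 10.1 and 11 CPM (11.3 ± 0.913). In ST it was 12.2, 13.3, 11.7 and 13.3 CPM (12.6 ± 0.799), and in SS it was 16.9, 10.9, 12.2 and 10.2 CPM (12.6 ± 3.03). ST and SS, the extremes of ENSOARG00000011188, had the same mean here and overlapping samples.

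The remaining muscles had the same level within their spread. In AD the level of ENSOARG00000011695 was 12.6, 12.9, 13.3 and 12.2 CPM (12.8 ± 0.46), the narrowest spread of the 9 muscles. In SM it was 15.0, 8.63, 14.4 and 11.1 CPM (12.3 ± 2.97), and in GB it was 9.03, 9.68, 16.1 and 10.7 CPM (11.4 ± 3.22). In both, single animals reached nearly the whole range of the locus. The SM counts were 44, 61, 54 and 70, from libraries of 4407709, 5781359, 5500924 and 6360548 counts. TMM set the sizes of these libraries to 2937657, 7065880, 3751112 and 6325904, and CPM of both loci in SM carry this scaling. Libraries of other muscles were rescaled too, to varying degrees. ST of animal 4 went from 6407360 to 4658175, and GB of animal 1 from 4250216 to 5650464. How much of the spread in SM or elsewhere comes from the scaling was not tested. GM had 14.2, 10.6, 11.6 and 12 CPM (12.1 ± 1.53), and LL had 12, 12.6, 10.8 and 13.2 CPM (12.1 ± 1.04). A different muscle was highest in each animal (SS, ST, GB and RF in animals 1 to 4), and so was the lowest (GB, SM, PM and SS). No step between neighbours in its order of muscles was called, 0 of 8, with a lowest FDR of 0.778. This order too was made from the means tested, so the count is a description.

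**Figure D1:**
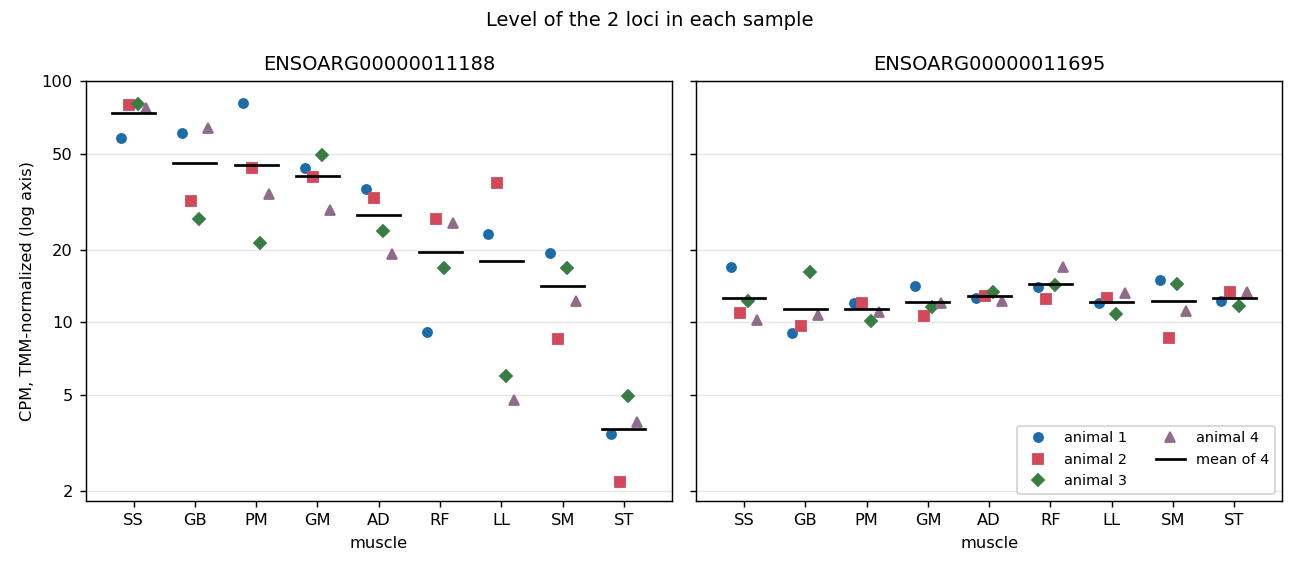
Level of each locus in each of the 36 samples, as CPM on a log axis, by muscle in the order of the mean of ENSOARG00000011188. Symbols mark the 4 animals and bars the muscle means; ENSOARG00000011188 falls from a mean of 73.9 CPM in SS to 3.61 CPM in ST, while all samples of ENSOARG00000011695 lie between 8.63 and 16.9 CPM.

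The variation was split differently between muscles and animals. Of the sum of squares of log2 CPM, muscle accounted for 80.0% in ENSOARG00000011188, animal for 1.7% and the remainder for 18.3%. In ENSOARG00000011695 muscle accounted for 20.7%, animal for 9.75% and the remainder for 69.6%. Noise alone also gives muscle and animal a share, and edgeR's joint test of the 9 muscles had an FDR of 0.7 for this locus. The biological coefficient of variation of the fit was 0.39 for ENSOARG00000011188 and 0.125 for ENSOARG00000011695, around a common value of 0.195 for all loci. The animals of 1 muscle therefore differed more in the first locus than in a typical locus. Its spread within a muscle exceeded the counting error in 9 of 9 muscles, by 1.32 to 8.84 times. For ENSOARG00000011695 it did so in 5 of 9 muscles, by 0.298 to 2.34 times over all of them, with a counting error of 11% to 14.1% of the mean.

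The muscles were then compared by edgeR's quasi-likelihood test with animal in the model, with Benjamini-Hochberg adjustment over all 12461 loci. The study names MYH7B among its leading genes between ST and SS and again between ST and GM, lower in ST each time. For both loci these contrasts are therefore descriptions. The muscles other than ST and SS were tested apart, with and without GM. Between ST and SS the fitted log2FC of ENSOARG00000011188 was -4.32 (FDR = 6.7e-08), and the differences within animals ranged from -4.99 to -3.93 (mean -4.27, SE 0.25). Of all loci, 1.52% were called higher in SS in that comparison. Between ST and GM the log2FC was -3.44 (FDR = 8.2e-06), where 1.52% of loci were called higher in GM. ENSOARG00000011695 had a log2FC of 0.02 between ST and SS (FDR = 0.952), with differences from -0.46 to 0.37 within animals. Only ENSOARG00000011188 was called in these contrasts, with ST the lower muscle, the direction that the study reports for MYH7B.

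Over the 9 muscles jointly, ENSOARG00000011188 differed with an FDR of 4.7e-07, rank 50 of 12461 loci, of which 8.94% were called at an FDR of at most 0.01. The 9 muscles include ST and SS, between which the study names MYH7B, so this result is a description. Over the 7 muscles other than ST and SS, ENSOARG00000011188 had an FDR of 0.0071 and rank 375, where 3.61% of loci were called. With GM left out as well the FDR was 0.0076. This call depends on the fit, since the FDR was 0.039 without animal in the model, 0.046 with a robust dispersion prior, and 0.046, 0.027 and 0.061 without animal 1, 3 or 4. For ENSOARG00000011695 the joint FDR was 0.7 over 9 muscles and 0.57 over 7.

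Taken pair by pair, ENSOARG00000011188 was called in 9 of 36 comparisons (FDR of at most 0.01 and absolute log2FC above 1), against 0.75% of all locus and pair combinations. All 9 hold ST or SS, the muscles between which the study names MYH7B, so the count is a description. ST was the lower muscle in 7 of the 9 and SS the higher in 3. Beside SS and GM, ST lay below GB (log2FC -3.60, SE 0.38, FDR = 4.5e-06), where 0.73% of all loci were called higher in GB. ST lay below PM (log2FC -3.50, SE 0.55, FDR = 7.1e-06), where 0.859% of loci were called, and below AD (log2FC -2.86, SE 0.38, FDR = 0.00015), where 0.706% were. Each of these muscles lay above ST in 4 of 4 animals, with no overlap of samples. Over all 36 pairs, 6.19% of locus and pair combinations did not overlap, and the share in these single pairs was not taken.

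ST also lay below RF (log2FC -2.41, SE 0.48, FDR = 0.0069), a comparison with 0.233% of loci called higher in RF. Between ST and LL the fitted log2FC was -2.15 (FDR = 0.0065), with 0.835% called higher in LL. The differences within animals averaged -1.77 (SE 0.91) and ranged from -3.91 to -0.26. The samples of LL overlapped those of ST, although LL was the higher in 4 of 4 animals. SM lay below SS (log2FC -2.44, SE 0.34, FDR = 0.0002), with 2.42% of loci called higher in SS. SS lay above LL (fitted log2FC 2.17, FDR = 0.00037), with 1.16% called, and the differences within animals averaged 2.5 (SE 0.76). SM with SS and SS with LL each had the same direction in 4 of 4 animals.

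Some of these calls were less firm than others. Those of ST with SS, GB, GM, AD and PM, and that of SM with SS, held in 14 of 14 alternative fits. The call of ST with RF held in 9 and was lost without animal 2, 3 or 4, without animal in the model and with the robust prior. That of ST with LL held in 10 and was lost without animal 1 or 2, with the robust prior and in the fit to the 8 samples of these muscles. The call of SS with LL held in 12 and was lost without animal 3 or 4, the animals with low LL levels. RF and SS just missed the threshold (log2FC -1.91, FDR = 0.0105) and were called in 7 of 14 alternatives.

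Among the 21 pairs without ST and SS, 0 were called for ENSOARG00000011188, against 0.357% of all locus and pair combinations. In the alternative fits SM with PM was called by the likelihood ratio test, SM with PM and SM with GM in the fits to 8 samples, GB with LL without animal 2, and 9 pairs without a filter. The nearest were SM against PM (log2FC -1.62, FDR = 0.017), GM (-1.56, FDR = 0.026) and GB (-1.72, FDR = 0.03), with SM the lower muscle in 4 of 4 animals each time. The samples of SM overlapped none of these muscles. Over all 36 pairs, 24 had an unadjusted p under 0.05, against 15.1% of locus and pair combinations, and 15 an FDR of at most 0.05, against 2.87%. Samples did not overlap in 16 of 36 pairs, against 6.19% of locus and pair combinations, and in 4 of the 21 pairs, against 5.32%.

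For ENSOARG00000011695, 0 of 36 pairs were called by edgeR, and 0 by DESeq2. The lowest FDR was 0.365 and the largest absolute log2FC 0.35. An unadjusted p under 0.05 was found in 2 of 36 pairs, below the share of 15.1% over all locus and pair combinations. These were RF with GB and RF with PM, with RF the higher muscle in both. Samples did not overlap in 2 of 36 pairs, near the share of 6.19% over all locus and pair combinations.

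**Figure D2:**
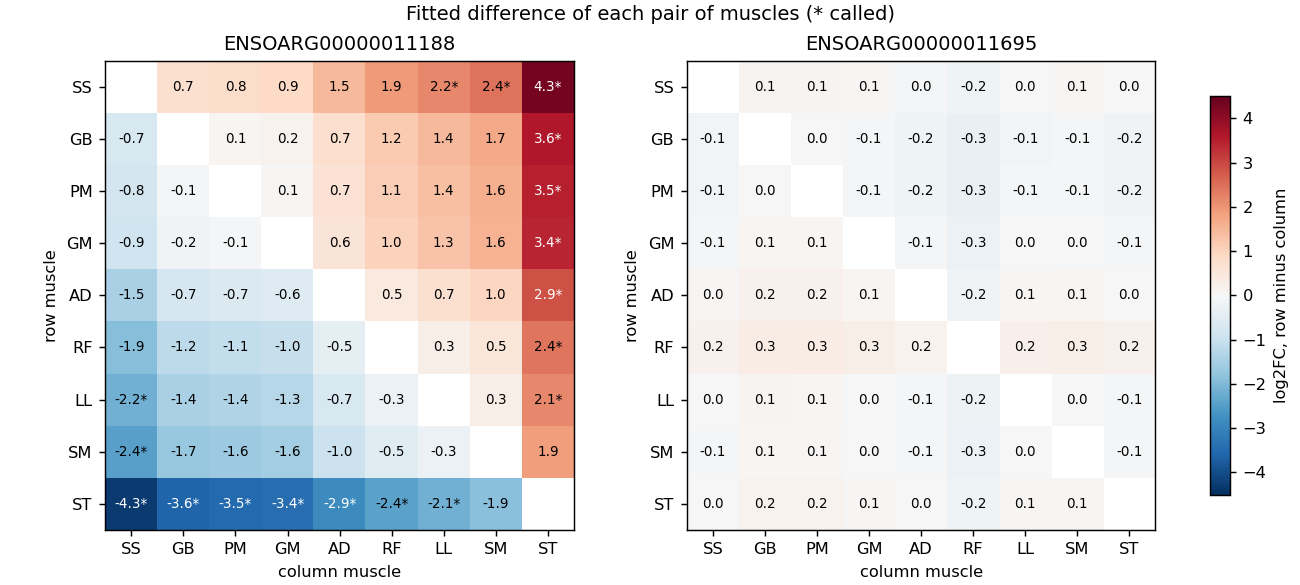
Fitted log2FC of each pair of muscles for both loci, row muscle minus column muscle, so that red marks a higher level in the row muscle and each pair appears with both signs. An asterisk marks a call (FDR of at most 0.01 and absolute log2FC above 1); ENSOARG00000011188 has 9 called pairs, all with ST or SS, and ENSOARG00000011695 has 0.

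To compare the loci directly, the log2 CPM of ENSOARG00000011695 was subtracted from that of ENSOARG00000011188 in each sample, which removes the depth of the library. The difference was lowest in ST, at -1.72, -2.43, -1.19 and -1.70 in animals 1 to 4 (-1.76 ± 0.51, SD, n = 4). It was highest in SS, at 1.75, 2.84, 2.68 and 2.88 (2.54 ± 0.53). Only ST was below 0 in 4 of 4 animals, while SS, GB, PM, GM and AD were above 0 in 4 of 4. As the gene lengths are unknown, the sign of the difference has no meaning of its own, and only its change among muscles does.

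The muscles in between followed the order of ENSOARG00000011188 with small exchanges. GB had a difference of 1.91 ± 0.91, PM of 1.80 ± 0.70, GM of 1.70 ± 0.34 and AD of 1.07 ± 0.40. RF, SM and LL lay near 0, at 0.33 ± 0.71, 0.17 ± 0.16 and 0.07 ± 1.40. SM was the most uniform muscle and LL the least, since LL ranged from -1.40 in animal 4 to 1.55 in animal 2. The difference varied among the 9 muscles by 4.3 between the highest and lowest means (permutation test of muscle labels within animals, two-sided, 100000 resamples, p = 1e-05, the smallest they can give). Those means are of SS and ST, between which the study names MYH7B, so this result over 9 muscles is a description. Over the 7 muscles other than ST and SS it varied by 1.85 (p = 0.0037, the same permutation test), and p was 0.0067 by that permutation test with GM left out as well.

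The same can be read in the raw counts as the percentage of the counts of both loci that fell on ENSOARG00000011188. In ST it was 22, 14.1, 29.7 and 22.5 in animals 1 to 4, from 59 to 101 counts in all. In SS it was 77.4, 88.0, 86.8 and 88.4, from 327 to 626 counts. The 95% Wilson interval of the highest ST value reached from 21.7% to 39.2% and that of the lowest SS value from 72.5% to 81.6%, and such intervals cover counting error only. In LL the percentage was 66.0, 74.9, 35.7 and 26.5, so that animals 3 and 4 lay apart from animals 1 and 2 beyond counting error, with intervals of 26.9% to 45.6% in animal 3 and 59.1% to 72.2% in animal 1.

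**Figure D3:**
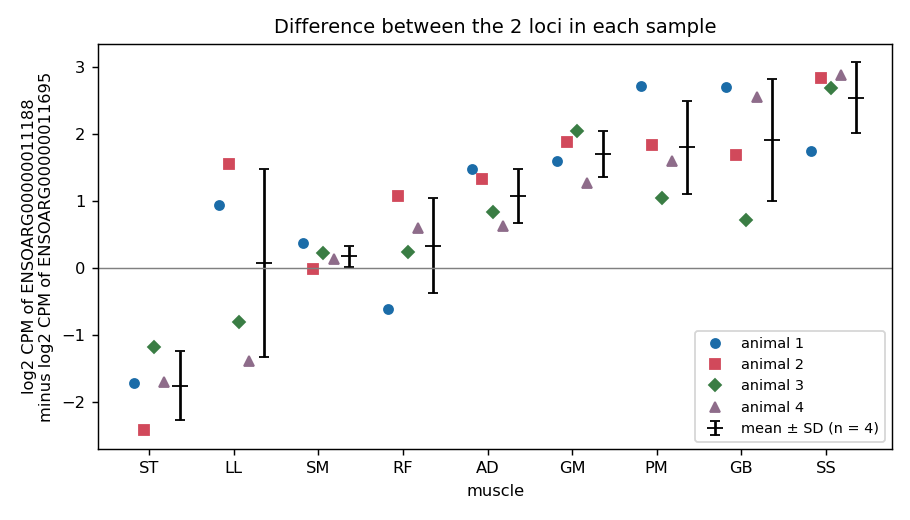
Difference between the loci in each sample, as log2 CPM of ENSOARG00000011188 minus log2 CPM of ENSOARG00000011695, by muscle from the lowest to the highest mean. Symbols mark the 4 animals and bars the mean ± SD; the mean rises from -1.76 in ST to 2.54 in SS, and LL has the widest spread.

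Across the 36 samples the loci showed little relation to one another. With log2 CPM centred within animals, Pearson's r between them was -0.12 and Spearman's rho -0.19, a description over samples that share libraries and animals. Over the 9 muscle means r was -0.33, and over what remained after muscle and animal it was 0.06.

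One more locus with the same span, ENSOARG00000024301, had 2 counts in all samples together and was not tested. Of the 3 nearest loci with an Ensembl gene on each side, 1 on each side passed the filter. ENSOARG00000010787, which ends 45050 bases before the shared span, averaged 60.4 CPM in ST against 14.9 CPM in SS, the opposite direction to ENSOARG00000011188 (log2FC 1.86, FDR = 0.00063, r with it -0.42). ENSOARG00000011939, which starts 73893 bases after the span, had a mean of 1.68 CPM over all samples and a log2FC of -0.39 between ST and SS (FDR = 0.66). The other 4 had means of at most 0.81 CPM.

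Of the 8 loci whose levels were most like those of ENSOARG00000011188, 4 were paired with genes of the slow thin filament. Likeness is Pearson's r over the 36 samples of log2 CPM centred within animals, taken over all other tested loci as a description. Symbols could be given only to the 29 loci that were paired through the study's tables of differing genes. The 8 highest values, 0.87 to 0.92, belonged to TNNT1 and TNNI1 (slow troponins T and I), TNNC1 (troponin C of slow and cardiac muscle), TPM3 (slow tropomyosin), ATP2A2 (the calcium pump of slow sarcoplasmic reticulum), KIAA1217 and a pair of loci without a paired symbol, ENSOARG00000019316 on chromosome 7 and ENSOARG00000017646 on chromosome 17. Over all 12459 loci compared, the median r was 0.02, the lowest -0.83, and 69 loci exceeded 0.7. The choice of these 8 depends on the measure, as 4 of them were among the first 8 by Spearman's rho and 2 by the 9 muscle means.

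ENSOARG00000019316 was the closest to ENSOARG00000011188 (r = 0.92), with a level of 220 ± 73.8 CPM in ST against 2550 ± 593 CPM in SS. For ENSOARG00000017646 (r = 0.87) the level was 10.5 ± 3.97 CPM in ST against 152 ± 35.8 CPM in SS. ST was the lowest muscle for all 8 loci, as it was for ENSOARG00000011188. The highest muscle was SS for 3 of them, KIAA1217 and the pair without a symbol, and PM for the other 5.

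For ENSOARG00000011695 the highest r was lower, at 0.71, with 3 loci above 0.7, and the first 8 lay between 0.68 and 0.71. None of these 8 was paired with a symbol, and none had a joint FDR of at most 0.01 over the 9 muscles. The closest, ENSOARG00000006966 on chromosome 11, showed 69.2 ± 18.9 CPM in ST against 57.0 ± 7.24 CPM in SS. For ENSOARG00000003220 on chromosome 14 the level was 9.04 ± 1.69 CPM in ST against 6.97 ± 1.18 CPM in SS. By the muscle means, 0 of the 8 remained among the first 8.

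**Figure D4:**
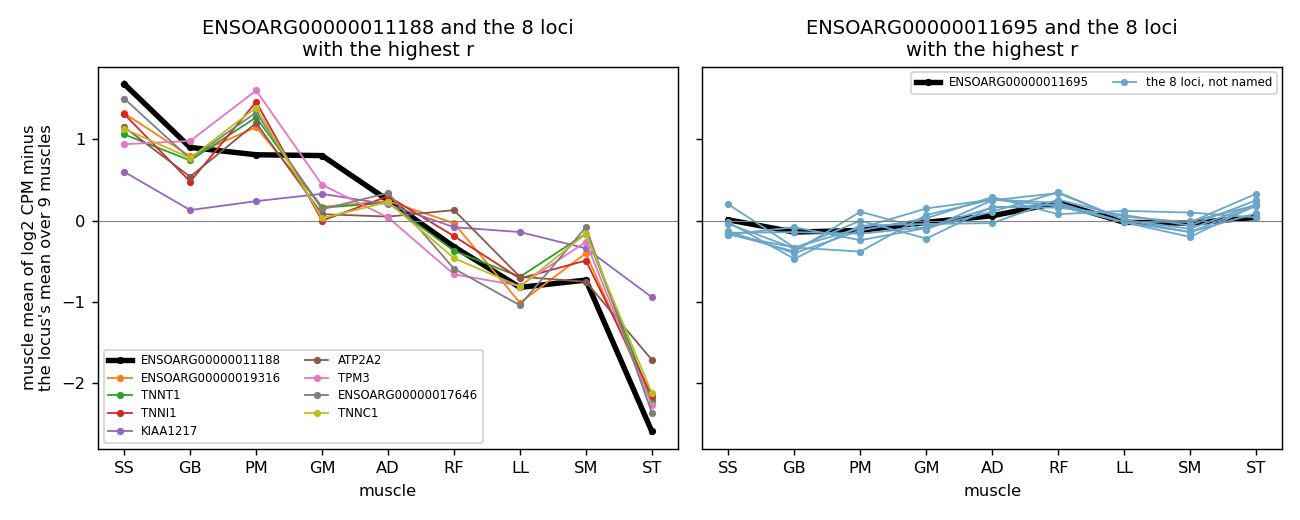
Muscle means of log2 CPM of each locus after subtracting its own mean over the 9 muscles, with the 8 loci of highest r for ENSOARG00000011188 on the left and for ENSOARG00000011695 on the right. On the left all lines are lowest in ST, and KIAA1217 has the smallest range; on the right all lines stay close to 0.

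A list of 16 genes of the slow sarcomere and its calcium handling was set beside the loci. Only symbols with coordinates in the study's tables could be paired, which gave 9 genes. The study listed those genes, and MYH7B with them, as differing between muscles in these same samples. Their calls, their direction and their r with ENSOARG00000011188 are therefore not independent evidence, and the counts that follow are descriptions. In the joint test of 9 muscles 9 of 9 were called, against 8.94% of all loci, and over the 7 muscles without ST and SS 8 of 9, against 3.61%, all but CASQ2, the calcium store protein of slow and cardiac muscle (FDR = 0.094). Between ST and SS 9 of 9 were called higher in SS, against 1.52% of all loci, and 0 in ST, with a median log2FC of -3.24 beside -0.01 over all loci. Their r with ENSOARG00000011188 was 0.71 to 0.90 (median 0.87) and with ENSOARG00000011695 -0.25 to 0.01.

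The 4 with the smallest joint p were MYOZ2, MYL3, TPM3 and ATP2A2. MYOZ2, a protein of the Z-disc that binds calcineurin, had a log2FC of -4.30 between ST and SS (FDR = 6.1e-12) and an r of 0.81 with ENSOARG00000011188. MYL3, the essential light chain of slow myosin, had -4.25 (FDR = 4.6e-10) and 0.79. TPM3 had -3.23 (FDR = 2.5e-10) and 0.89, and ATP2A2 had -2.85 (FDR = 1.2e-09) and 0.89. The fitted log2FC of ENSOARG00000011188, -4.32, was of the size of those of MYOZ2 and MYL3, the largest among the 9 paired genes, whose median was -3.24.

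Of the other lists, few symbols could be paired. Of 14 fast sarcomere genes 1 was paired, PVALB, the calcium buffer of fast fibres, which differed over the 9 muscles (FDR = 1.1e-10) but was not called between ST and SS (log2FC 0.46, FDR = 0.52), with an r of -0.23 with ENSOARG00000011188 and 0.40 with ENSOARG00000011695. Of 23 regulators of slow fibres 1 was paired, EYA1, a transcriptional cofactor that takes part in muscle development, which differed over the 9 muscles (FDR = 1.6e-07) and had a log2FC of -1.09 between ST and SS (FDR = 0.033). Its r was 0.22 with ENSOARG00000011188 and 0.18 with ENSOARG00000011695. Of 15 myosin heavy chains 0 could be paired with a single locus, so the levels of the loci were not set against those of MYH7 or of the fast heavy chains.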

How the data were processed

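The authors aligned paired-end reads to Oar_v3.1 (TopHat2 2.0.13), assembled loci (Cufflinks 2.2.1) and counted reads with HTSeq, per the labels and the study's methods. The deposited values are whole-number counts per locus without normalization, in 31530 entries for 31136 distinct loci, each used once.

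Loci were filtered with filterByExpr by muscle, TMM-normalized and fitted with muscle and animal by edgeR's quasi-likelihood test (edgeR 4.0.16, limma 3.58.1, R 4.3.3), as the study's methods also block on animal. A call needed an FDR of at most 0.01 within the comparison and an absolute log2FC above 1. Log2 CPM used a prior count of 2, and each SE is that of the 4 differences within animals on that scale. Permutation tests and figures used Python 3.11.15, NumPy 2.4.6, SciPy 1.17.1, pandas 2.3.3 and matplotlib 3.10.9. The code was also run on simulated data without differences between animals, and that run does not measure the error of the calls made here.

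The number in a sample's title was read as its lamb. For samples of the same animal, deviations from the muscle means correlated with a mean r of 0.236 over 144 pairs, against -0.0777 between animals. Such deviations cancel out over the animals of a muscle, so the value between animals tends to be negative by construction. In 54 pairs of animals within a muscle, counts differed beyond sampling noise (chi-square per degree of freedom at least 5.12).

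The genes named are both loci, the 8 loci most like each, the 4 genes of smallest joint p per list, matched myosin heavy chains, and overlapping and neighbouring loci; loci with no symbol are named at most 2 per locus, and of the neighbours only those tested. CASQ2 was added after its values were seen. Symbols came from coordinates in the study's tables (29 of 39 paired). The loci and lists were chosen with earlier results of these data known.

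Alternatives were the likelihood ratio test, DESeq2 1.42.0, RLE size factors, library sizes from loci with an Ensembl gene, no filter, a minimum of 10 counts per sample, no animal block, fits to 8 samples, an FDR of 0.05, each animal left out, other prior counts (0.5, or 1 added to raw counts), other measures of likeness and, chosen after seeing the data, a robust dispersion prior, leaving out SS of animal 1, and leaving GM out of the joint tests.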

Additional observations from a re-analysis of the deposited data

Results flagged for a closer look

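In SS, the level of ENSOARG00000011188 in animal 1 was 57.9 CPM, set apart from the other SS samples at 77.6 to 80.4 CPM. Its gap to the nearest of them, divided by the range of the 4 samples, was 0.876, above Dixon's 95% critical value for 4 samples. Each of 18 groups of 4 samples was examined, and 1 stood out, which is about what chance gives, as it marks about 1 in 20 groups. The same sample held the highest level of ENSOARG00000011695 in SS, 16.9 CPM. Without it, the log2FC of ENSOARG00000011188 between ST and SS was -4.49 and 10 pairs of muscles were called in place of 9, RF with SS being the one added.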

How the results depend on the processing

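The number of pairs called for ENSOARG00000011188, 9, became 21 without a filter on low counts, 9 of them among muscles other than ST and SS, and 15 at an FDR of 0.05, 3 of them among those muscles; the cause of the first was not tested. It was 7 to 13 under the other alternatives and 7 to 8 with 1 animal left out. Among muscles other than ST and SS, 1 was called by the likelihood ratio test, 1 without animal 2 and 2 in the fits to 8 samples. The joint test of the 7 muscles other than ST and SS had an FDR of 0.0071, which became 0.039 without the replicate block, 0.046 with the robust dispersion prior and 0.0034 to 0.061 with 1 animal left out, above 0.01 without animal 1, 3 or 4; the cause was not tested. The joint test of 9 muscles and the log2FC between ST and SS stayed past the threshold under every alternative run for ENSOARG00000011188. Both results include ST and SS, between which the study names MYH7B, so they remain descriptions. For ENSOARG00000011695, 0 pairs were called under any alternative. The difference between the loci varied by 3.98 to 4.57 over 9 muscles and by 1.68 to 2.42 over 7 with 1 animal left out, with permutation p of at most 0.031; without the animal block over 7 muscles p was 0.0044. Of the 8 loci most like each, 4 and 2 remained by Spearman's rho and by muscle means for ENSOARG00000011188, and 4 and 0 for ENSOARG00000011695.

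Counts over all loci moved more. Between ST and SS, 190 loci were higher in SS, and 413 without a filter, 71 without the replicate block, 92 with at least 10 counts in every sample and 103 to 157 with 1 animal left out. Loci higher in ST numbered 96, and 165, 59, 47 and 50 to 106 in the same fits. The joint test of 9 muscles called 1114 loci, 323 without the block, 2116 by the likelihood ratio test, 2384 without a filter and 454 to 673 with 1 animal left out. Over the 7 muscles it called 450, and 110, 1155, 1494 and 144 to 316 in the same fits, and 800 by DESeq2. No scaling moved the median log2FC of all loci by more than 0.07. With 10 to 30 counts in ST, the level of ENSOARG00000011188 there carries a counting error of up to 24.1%.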
